A study of Bos taurus with 6 samples.

Results

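The miR-193 and miR-365 miRNAs were compared in liver between grass-fed and grain-fed cattle. The 6 mature miRNAs named bta-miR-193a, bta-miR-193a-5p, bta-miR-193a-3p, bta-miR-193b, bta-miR-365-3p and bta-miR-365-5p were taken by name from the 1030 mature miRNAs listed in each library, and they come from 5 of the 1064 listed hairpins. The small RNA libraries were made from 3 grass-fed and 3 grain-fed Wye Angus steers, 1 library per animal. The grass-fed steers, raised mainly on alfalfa, hay or pasture, were 21 months old, and the grain-fed steers, raised mainly on corn silage, shelled corn and soybean, were 14 months old. All steers came from the same closed herd and were sampled at market weight, so diet and age cannot be told apart. Depth also followed diet, with 3824592 to 6133960 miRNA counts in the grass-fed libraries and 464875 to 892929 in the grain-fed libraries, and each miRNA was counted once at its largest count over hairpins.

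A miRNA hairpin gives a 5p and a 3p mature strand, and usually one of them is loaded into the silencing complex and the other is degraded. The miR-193 and miR-365 hairpins lie in paired clusters in mammals, and the cluster of miR-193b and miR-365 is known from brown fat, where it has been described as promoting brown adipocyte differentiation. miR-193a-3p and miR-193b belong to the same seed family and are known for restraining cell proliferation in several tumours. In RefSeq's annotation of ARS-UCD2.0, a later assembly than the ARS-UCD1.2 used by the authors, MIR193B and MIR365-1 were direct neighbours and both overlapped the lncRNA gene LOC100849865. MIR365-2 overlapped the lncRNA gene LOC132343021, and MIR2333 was the 1 gene that lay wholly between it and MIR193A. The hairpin bta-mir-193a-2 stood apart from both clusters and overlapped the protein-coding gene ZNF623.

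In grass-fed liver bta-miR-365-3p was higher than in grain-fed liver. It was the 1 of 5 tested miR-193 and miR-365 miRNAs that passed FDR 0.1 after TMM scaling, and 19.1% of all 456 tested miRNAs passed. The call of bta-miR-365-3p was lost with total-count scaling. It was also lost on leaving out grass-fed replicate 2, grain-fed replicate 2 or grain-fed replicate 3. The reads of bta-miR-365-3p were listed for both miR-365 hairpins, of which bta-mir-365-1 lies beside bta-mir-193b. On the TMM scale bta-miR-193b had nearly the same mean level in both groups. As a share of the library total, bta-miR-193b was lower in every grass-fed library than in any grain-fed library. The share of bta-miR-193b relative to bta-miR-365-3p was lower in every grass-fed library than in any grain-fed library, and so was the share of the rarer arm of both miR-365 and miR-193a. By comparison, 37.3% of all pairs of miRNAs and 40.7% of hairpins with both arms had ratios that did not overlap. These within-library ratios do not depend on how the libraries are scaled, and 3 libraries against 3 cannot give an exact permutation p below 0.1.

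The hepatocyte miRNA bta-miR-122, the most abundant miRNA of liver, took 26.2% to 31.7% of the grass-fed counts and 14.9% to 21.6% of the grain-fed counts. The 6 miR-193 and miR-365 miRNAs together took 0.108% to 0.125% of the grass-fed counts and 0.0942% to 0.122% of the grain-fed counts. In all, 456 miRNAs had more than 2 counts in 2 or more libraries and were tested by the quasi-likelihood test of edgeR, and 87 of them (19.1%) passed FDR 0.1, of which 43 were higher in grass-fed liver. With total-count scaling, 74 (16.2%) passed and 9 of these were higher. Over all 456 the log2 fold changes had a median of 0.13 on the TMM scale and of -0.29 with total counts alone, so the diet difference of each miR-193 and miR-365 miRNA is given on both scales. In these bulk samples, fewer cells of a type and less RNA per cell cannot be told apart.

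Of the 6 miRNAs, 5 passed the count filter. bta-miR-193a, the mature miRNA listed for bta-mir-193a-2, had 0 counts in all 6 libraries. With 3 counts per library as the floor, this allows up to 0.632 to 0.787 TMM-scaled CPM in the grass-fed libraries and up to 2.92 to 5.32 CPM in the grain-fed libraries, which covers counting error only. It was therefore not detectable at this depth, and the limit is less strict in the grain-fed group.

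bta-miR-365-3p, the major strand of miR-365, was the most abundant of the 6 and ranked 70 of 456 by mean CPM. It had 690, 1170 and 656 TMM-scaled CPM in grass-fed replicates 1, 2 and 3 and 549, 336 and 452 CPM in grain-fed replicates 1, 2 and 3. The lowest grass-fed library was above the highest grain-fed library, and grass-fed replicate 2 was the highest of all. The means were 839 ± 288 and 446 ± 107 CPM (SD, n = 3 each). The log2 fold change was 0.91 (standard error 0.28, 95% interval 0.30 to 1.52, FDR = 0.0477 in edgeR). It had the 66th smallest p of the 456 tested miRNAs. The call was lost when grass-fed replicate 2 was left out, at 0.59 (FDR = 0.156, edgeR). It was also lost on leaving out grain-fed replicate 2, at 0.64 (FDR = 0.257, edgeR), or grain-fed replicate 3, at 0.87 (FDR = 0.111, edgeR). Grass-fed replicate 2 also had the lowest TMM factor, 0.692, against 0.936 and 0.996 in the other grass-fed libraries and 1.11 to 1.21 in the grain-fed libraries, and the part of this factor in the result was not tested.

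On the scale of the library total, bta-miR-365-3p had 645, 810 and 654 CPM in the grass-fed group and 632, 373 and 549 CPM in the grain-fed group, for replicates 1, 2 and 3. The groups still did not overlap, but grass-fed replicate 1 and grain-fed replicate 1 were close to each other. The log2 fold change was 0.44 and did not pass (FDR = 0.302, edgeR). A setting added once the values were known, the total without bta-miR-122, gave 0.65 (FDR = 0.104, edgeR). Its direction was the same in all 19 alternatives, with log2 fold changes from 0.44 to 1.07.

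The reads of bta-miR-365-3p could not be given to one of its hairpins. Its counts for bta-mir-365-1 and bta-mir-365-2 were identical in 4 libraries and differed by 2 and 3 counts in grass-fed replicates 2 and 3. bta-miR-365-5p, in contrast, was listed for bta-mir-365-1 alone.

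bta-miR-193b, the partner of bta-mir-365-1, had 367, 474 and 302 TMM-scaled CPM in grass-fed replicates 1, 2 and 3 and 400, 387 and 367 CPM in grain-fed replicates 1, 2 and 3. The grain-fed values lay inside the range of the grass-fed values. The means were 381 ± 86.6 and 385 ± 16.6 CPM (SD, n = 3 each). The log2 fold change was -0.01 (95% interval -0.51 to 0.48, FDR = 0.961, edgeR). The interval includes changes in either direction of up to about 0.5 on the log2 scale.

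On the scale of the library total the picture of bta-miR-193b was different, with 344, 328 and 301 CPM in the grass-fed group and 460, 430 and 445 CPM in the grain-fed group, for replicates 1, 2 and 3. Every grass-fed library was below every grain-fed library. The log2 fold change was -0.46 and did not pass (FDR = 0.206, edgeR), and it was 0.15 with upper-quartile scaling (FDR = 0.635, edgeR). The sign of the bta-miR-193b difference therefore depended on the scaling.

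bta-miR-193a-5p was the more abundant strand of miR-193a, with 86.3, 113 and 87.7 TMM-scaled CPM in grass-fed replicates 1, 2 and 3 and 69.2, 69.4 and 71.0 CPM in grain-fed replicates 1, 2 and 3. The groups did not overlap. Its log2 fold change of 0.45 (95% interval -0.07 to 0.98) did not pass (FDR = 0.254, edgeR). It passed with upper-quartile scaling, at 0.63 (FDR = 0.0572, edgeR), and was 0.02 with total counts alone, where the means were 82.1 ± 4.76 and 80.9 ± 4.60 CPM (SD, n = 3 each) and the groups overlapped.

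bta-miR-193a-3p, which belongs to the same seed family as bta-miR-193b, was rarer than the 5p strand in all libraries and rested on 89, 89 and 58 counts in the grass-fed group and only 24, 25 and 9 counts in the grain-fed group, for replicates 1, 2 and 3. These gave 18.7, 21.0 and 15.2 TMM-scaled CPM in grass-fed and 23.4, 35.4 and 15.97 CPM in grain-fed liver. The ranges overlapped, and the 95% exact Poisson interval of the lowest grain-fed value ran from 7.30 to 30.3 CPM. The log2 fold change of -0.46 (95% interval -1.19 to 0.27) did not pass (FDR = 0.438, edgeR), nor did the -0.88 found with total counts alone (FDR = 0.121, edgeR). The pancreas miRNAs bta-miR-216a, bta-miR-216b, bta-miR-217 and bta-miR-375 had a summed level of 90.6, 136 and 14.2 CPM in grain-fed replicates 1, 2 and 3. This is the order of bta-miR-193a-3p over these libraries, but bta-miR-216a itself was highest in grain-fed replicate 1. In the grass-fed libraries the sum was 32.3 to 36.0 CPM. bta-miR-216a was at 0 in all grass-fed libraries, and bta-miR-216a, bta-miR-216b and bta-miR-217 were at 0 in grain-fed replicate 3. The part of these in the bta-miR-193a-3p values was not tested. Without grain-fed replicate 2 its log2 fold change was -0.24 (FDR = 0.781, edgeR).

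bta-miR-365-5p, the rarer strand of miR-365, had 78, 100 and 68 counts in the grass-fed group and 19, 14 and 16 counts in the grain-fed group, for replicates 1, 2 and 3. Its level was 16.4, 23.6 and 17.8 TMM-scaled CPM in grass-fed and 18.5, 19.8 and 28.4 CPM in grain-fed liver, with overlapping ranges. Its log2 fold change of -0.16 (95% interval -0.88 to 0.55) did not pass (FDR = 0.819, edgeR). With total counts alone it was -0.60 (FDR = 0.301, edgeR), and with upper-quartile scaling 0.0096 (FDR = 0.993, edgeR).

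**Figure D1:**
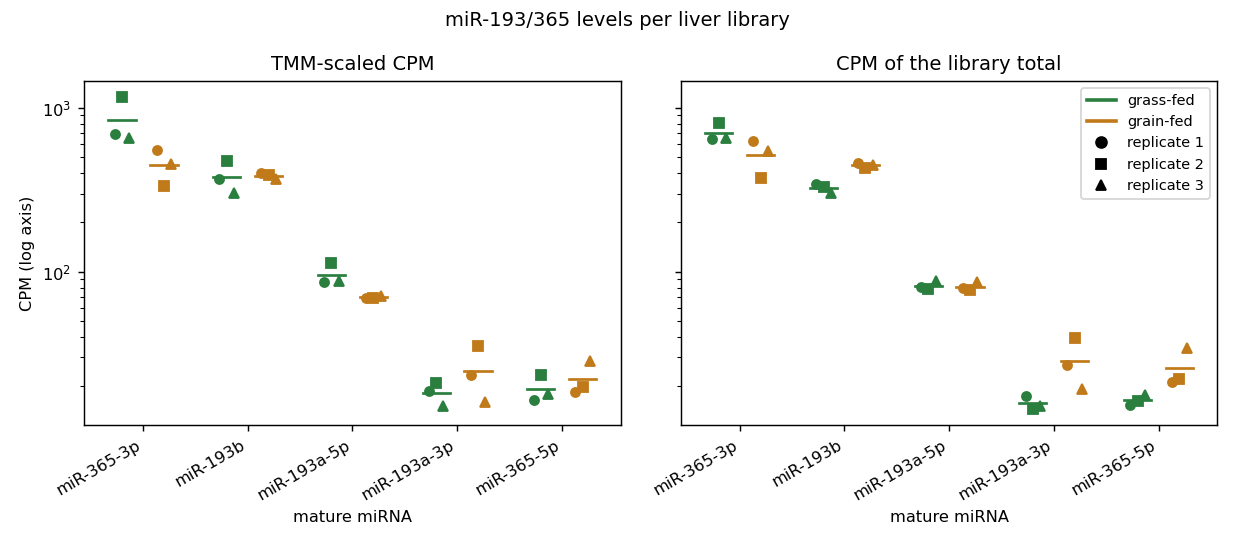
CPM of the 5 detected miR-193 and miR-365 miRNAs on a log axis, TMM-scaled on the left and as CPM of the library total on the right, with 1 point per library (green grass-fed, orange grain-fed, symbols for replicates) and a line at each group mean. bta-miR-365-3p is higher in grass-fed liver in both panels, while bta-miR-193b overlaps between the diets on the left and is lower in all grass-fed libraries on the right.

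Of the 5 tested miRNAs, 2 had TMM-scaled values apart between the diets, bta-miR-365-3p and bta-miR-193a-5p, and 32.9% of all tested miRNAs did so. On the scale of the library total this held for bta-miR-365-3p, bta-miR-193b, bta-miR-193a-3p and bta-miR-365-5p, and for 33.3% of all tested miRNAs. In order of mean level, bta-miR-365-3p was followed by bta-miR-193b, bta-miR-193a-5p, bta-miR-193a-3p and bta-miR-365-5p. bta-miR-193a-3p and bta-miR-365-5p overlapped in both diets. bta-miR-365-3p had more counts than bta-miR-193b in 5 of 6 libraries, and in grain-fed replicate 2 it had fewer. Counts of different miRNAs also carry differences in how well each ligates to the adapters, so this order describes reads and not molecules.

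**Figure D2:**
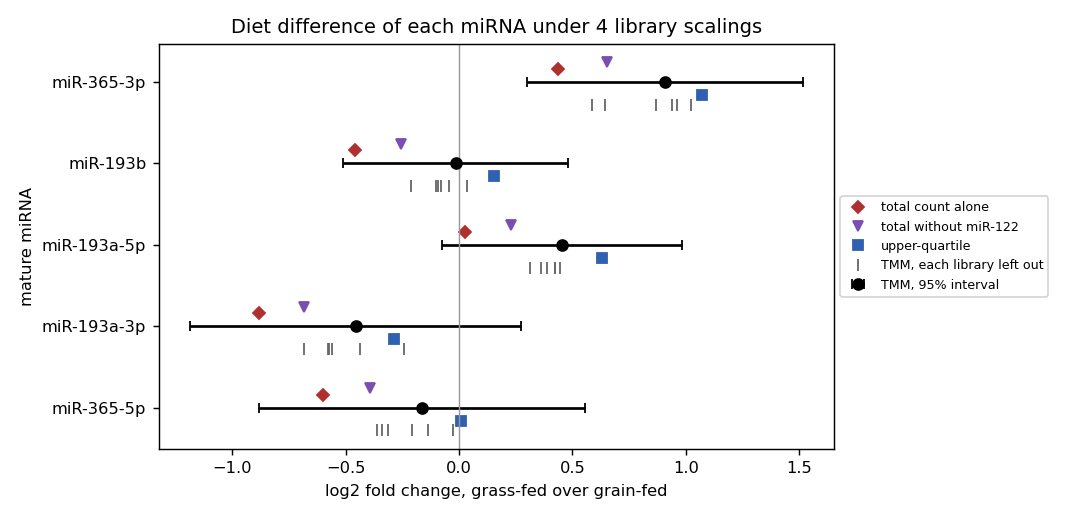
Log2 fold change of grass-fed over grain-fed liver for each of the 5 miRNAs, with the TMM value and its 95% interval in black, 3 other library scalings as coloured symbols, and grey ticks for the TMM value with each library left out. Total counts alone move every miRNA to the left and upper-quartile scaling moves every miRNA to the right, and bta-miR-365-3p stays above 0 under all 4 scalings.

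The ratio of 2 miRNAs within a library cancels the scaling, and 5 such ratios were compared between the diets by a two-sided exact permutation test on log2 count ratios with 0.5 added to each count. For 3 libraries against 3 the smallest p this test can give is 0.1, so no ratio could reach 0.05. The ratio of bta-miR-193b to bta-miR-365-3p, which sets the 2 abundant cluster partners against each other, was 0.533, 0.405 and 0.460 in the grass-fed group and 0.729, 1.15 and 0.812 in the grain-fed group, for replicates 1, 2 and 3. Every grass-fed library was below every grain-fed library, and bta-miR-193b exceeded bta-miR-365-3p only in grain-fed replicate 2. The difference of the mean log2 ratios was -0.93 (exact permutation p = 0.1, adjusted p = 0.125 over the 5 ratios, lower in 3 of 3 grass-fed libraries). Leaving out single libraries gave -1.06 to -0.73.

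The ratio of bta-miR-193a-3p to bta-miR-365-3p also did not overlap, at 0.0272, 0.0179 and 0.0232 in the grass-fed group and 0.0426, 0.105 and 0.0353 in the grain-fed group, for replicates 1, 2 and 3. The difference of the mean log2 ratios was -1.30 (exact permutation p = 0.1, adjusted p = 0.125), or -0.83 without grain-fed replicate 2. The ratio of bta-miR-193b to bta-miR-193a-3p, 2 miRNAs of the same seed family, overlapped between the diets, with 19.6, 22.6 and 19.8 in the grass-fed group and 17.1, 10.9 and 23.0 in the grain-fed group, for replicates 1, 2 and 3. Its difference was 0.38 on the log2 scale (exact permutation p = 0.3), and leaving out grain-fed replicate 2 or 3 gave 0.098 or 0.61. Thus 4 of the 5 ratios did not overlap. Among all 65341 pairs of miRNAs with a mean count of at least 5, 37.3% did not overlap, and the 5 ratios share miRNAs with each other.

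**Figure D3:**
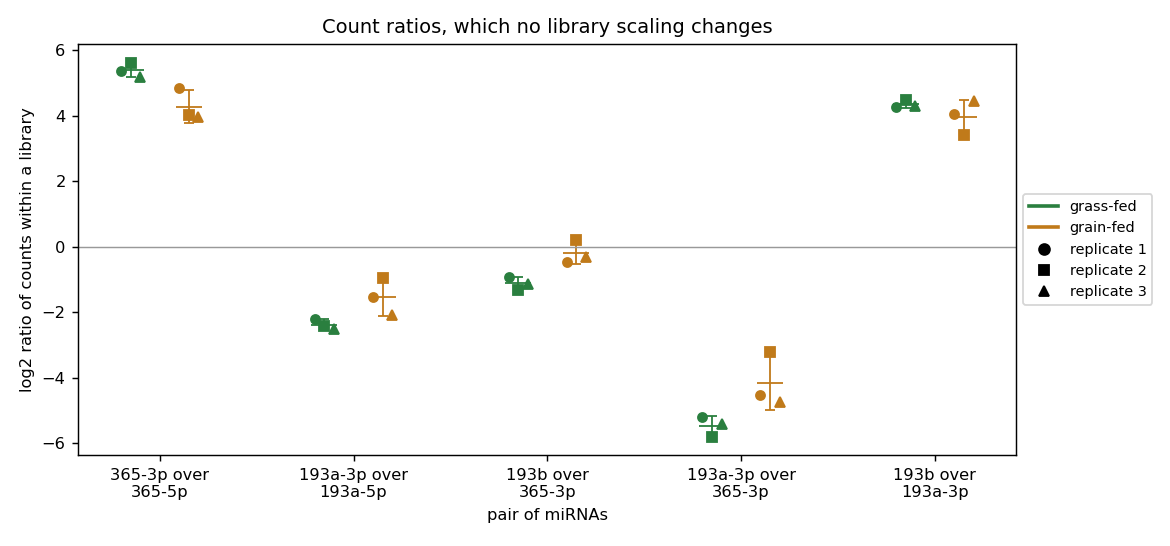
Log2 count ratio of each pair of miRNAs in each library, with the mean and SD of 3 libraries per diet (green grass-fed, orange grain-fed). The groups are apart for the first 4 pairs and overlap for bta-miR-193b over bta-miR-193a-3p, and grain-fed replicate 2 lies farthest from the grass-fed mean in the last 4.

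The balance of the 2 arms of each hairpin was described by the share of the rarer arm. bta-miR-365-5p made up 2.33%, 1.97% and 2.65% of the reads of both miR-365 arms in the grass-fed group and 3.26%, 5.58% and 5.90% in the grain-fed group, for replicates 1, 2 and 3. All grain-fed shares were higher than all grass-fed shares. The means were 2.32% ± 0.337 and 4.91% ± 1.44 (SD, n = 3 each). Grain-fed replicate 1 was the closest to the grass-fed libraries, and its 95% Clopper-Pearson interval, from 1.97% to 5.04%, covered all 3 grass-fed values. The difference of the log2 ratio of bta-miR-365-3p to bta-miR-365-5p was 1.12 (exact permutation p = 0.1, adjusted p = 0.125 over the 5 ratios). Since bta-miR-365-3p comes from both hairpins and bta-miR-365-5p is listed for one, this share is not that of a single hairpin.

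bta-miR-193a-3p made up 17.8%, 15.7% and 14.8% of the reads of both miR-193a arms in the grass-fed group and 25.3%, 33.8% and 18.4% in the grain-fed group, for replicates 1, 2 and 3. The groups did not overlap, but grain-fed replicate 3 was close to grass-fed replicate 1, and its 95% Clopper-Pearson interval, from 8.76% to 32.0%, covered all grass-fed values. The difference of the log2 ratio of the 3p to the 5p arm was -0.85 (exact permutation p = 0.1, adjusted p = 0.125), or -0.56 without grain-fed replicate 2. The intervals cover counting error only.

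**Figure D4:**
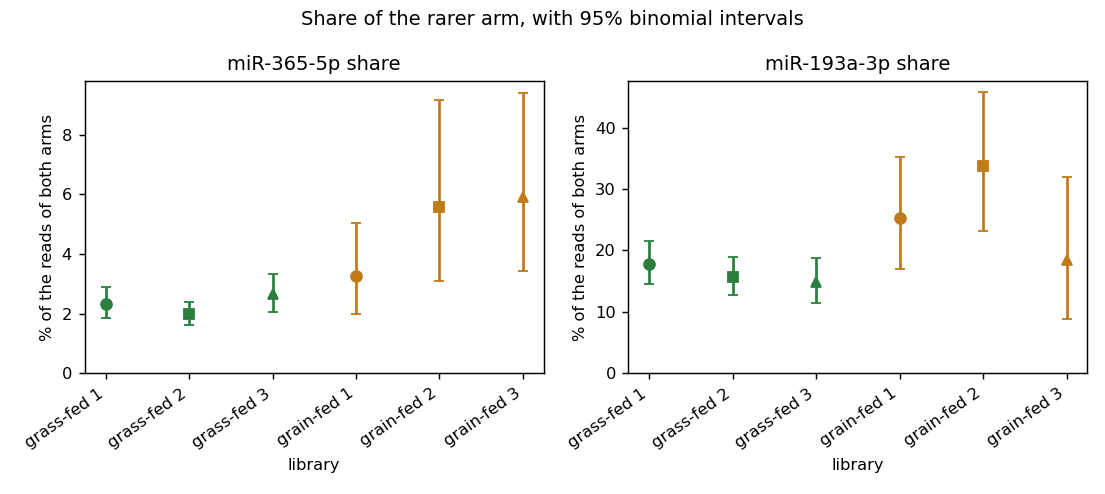
Share of the rarer arm, as a percentage of the reads of both arms, for miR-365 (left) and miR-193a (right) in each library, with 95% Clopper-Pearson intervals. The grain-fed shares lie above the grass-fed shares in both panels and have wider intervals, because the grain-fed libraries hold fewer counts.

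For miR-365 and miR-193a the arm ratio was also set beside those of other hairpins, in a comparison added after the values were seen. In the files, 27 hairpins had a 5p and a 3p form of the same miRNA with a mean count of at least 5 for each. Of these, 11 (40.7%) had arm ratios that did not overlap between the diets and 9 (33.3%) passed FDR 0.1 in limma. The rarer arm was lower in grass-fed liver, as for both miR-193a and miR-365, in 13 of the 27, in 8 of the 11 that did not overlap and in 6 of the 9 that passed. The median difference over the 27 was 0.11 on the log2 scale. bta-mir-365-1 passed, with a difference of -1.12 in the log2 ratio of the rarer to the more abundant arm (95% interval -1.94 to -0.30, FDR = 0.0573, limma). bta-mir-193a did not, at -0.85 (95% interval -1.70 to 0.0069, FDR = 0.133, limma). Since the reads of bta-miR-365-3p were also listed for bta-mir-365-2, the ratio given for bta-mir-365-1 is not that of a single hairpin. The call of bta-mir-365-1 depended on which hairpins were counted. Over 41 hairpins with any 2 listed mature miRNAs, the set tried first, 3 passed and bta-mir-365-1 had FDR = 0.133 in limma.

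The miRNAs whose TMM-scaled log2 CPM was most like that of each member over the 6 libraries were found by Pearson's r, as a description, since the points share their library, depth and diet. For bta-miR-365-3p these were bta-miR-2284x, bta-miR-2284y and bta-miR-2285av, each with r = 0.990. bta-miR-2284y and bta-miR-2285av had identical values, and bta-miR-2284x was close to both, with a mean of 764.1 against 763.3 CPM. For bta-miR-193a-5p they were bta-miR-29a (r = 0.984), bta-miR-92a (r = 0.978) and bta-miR-191 (r = 0.970). For bta-miR-193b they were bta-miR-222 (r = 0.930), bta-miR-3432b (r = 0.923) and bta-miR-26a (r = 0.887). Among the members, the highest r was 0.926, between bta-miR-365-3p and bta-miR-193a-5p. That between bta-miR-365-3p and bta-miR-193b was 0.378, and that between the 2 arms of miR-193a was -0.318. Since bta-miR-365-3p was listed for both miR-365 hairpins, bta-miR-193a-5p and bta-miR-193b each come from a cluster that holds one of them. For the 2 rare strands the nearest miRNAs were themselves low. These were bta-miR-374c (r = 0.956), bta-miR-217 (r = 0.863) and bta-miR-6123 (r = 0.850) for bta-miR-193a-3p, and bta-miR-2285ad (r = 0.911), bta-miR-2285q (r = 0.809) and bta-miR-7862 (r = 0.809) for bta-miR-365-5p.

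Of 22 miRNAs listed for brown and beige adipocytes, 19 were tested, and in edgeR 2 were higher and 1 was lower in grass-fed liver at FDR 0.1 (19.1% of all tested miRNAs passed), with a median log2 fold change of -0.21 against 0.13 over all tested miRNAs. bta-miR-30c, of the miR-30 family that has been described as promoting thermogenic genes, rose by 0.79 (FDR = 0.0203, edgeR) and bta-miR-328 by 1.16 (FDR = 0.0324, edgeR), while bta-miR-26b fell by 0.95 (FDR = 0.0234, edgeR). bta-miR-30b-5p, of the same family and list, went the other way from bta-miR-30c, at -0.48, and did not pass (FDR = 0.146, edgeR). With total counts alone the calls of bta-miR-30c, at 0.38 (FDR = 0.332, edgeR), and bta-miR-328, at 0.72 (FDR = 0.190, edgeR), were lost, and the value of bta-miR-26b was -1.39 (FDR = 0.000367, edgeR). bta-miR-30b-5p passed with total counts alone, at -0.88 (FDR = 0.0156, edgeR). On that scale the list had 0 higher and 6 lower, with a median of -0.61 against -0.29 over all tested miRNAs. Of 16 miRNAs of white adipocytes and insulin sensitivity, 14 were tested, with 3 higher, 0 lower and a median of 0.45, or 1 higher, 0 lower and a median of 0.03 with total counts alone. The 3 were bta-miR-145 (1.09, FDR = 0.00599, edgeR), bta-miR-204 (1.39, FDR = 0.0241, edgeR) and bta-miR-221 (1.18, FDR = 0.0493, edgeR). With total counts alone the calls of bta-miR-204, at 0.94 (FDR = 0.128, edgeR), and bta-miR-221, at 0.73 (FDR = 0.227, edgeR), were lost, and the value of bta-miR-145 was 0.66 (FDR = 0.0648, edgeR). Over all lists, 17 of 64 distinct tested miRNAs passed (26.6%), 11 higher and 6 lower, against 19.1% of all tested miRNAs.

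Lists of cell-type miRNAs were counted in the same fit, in which 19.1% of all tested miRNAs passed, or 16.2% with total counts alone. Of the hepatocyte list 2 of 6 were higher in grass-fed liver, namely bta-miR-122 and bta-miR-192, while bta-miR-194 had a log2 fold change of -0.43 and bta-miR-101 of -0.03, and neither passed. The list had a median of 0.43, or -0.03 with total counts alone. Its summed level, of which bta-miR-122 was the highest member, was 540000 to 837462 TMM-scaled CPM in grass-fed and 352282 to 412682 CPM in grain-fed libraries. Of the stellate and mesenchymal list 3 of 6 were higher, and of the skeletal muscle list 1 of 4, bta-miR-499. The leukocyte list had 1 of 7 lower, bta-miR-146a, and a median of -0.51. Of that list bta-miR-155, at 0.40, and bta-miR-342, at 0.39, went the other way, and neither passed. The biliary and epithelial list had bta-miR-200b higher and bta-miR-141 lower among 5. None of 3 erythroid and none of 2 endothelial miRNAs passed FDR 0.1 in edgeR, and none of these had an unadjusted p below 0.05. Of the pancreas list 3 of 4 were lower, all but bta-miR-375. In grain-fed replicates 1, 2 and 3 the counts were 5, 3 and 0 for bta-miR-216a and 7, 7 and 0 for bta-miR-216b. Those of bta-miR-217 were 17, 31 and 0. The CPM ranges of these miRNAs overlapped between the diets, so the calls rest on grain-fed replicates 1 and 2. With total counts alone, 1 hepatocyte and 1 stellate and mesenchymal miRNA were higher, and 3 leukocyte, 3 pancreas, 1 erythroid and 1 biliary and epithelial miRNA were lower. The part of these cell types in the values of the miR-193 and miR-365 miRNAs was not tested.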

How the data were processed

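The authors trimmed adapters, filtered reads by quality and length, mapped to ARS-UCD1.2, and used miRDeep2 to count miRBase miRNAs. Per the labels, the submitters' processing notes also name FastQC 0.11.5 and Trimmomatic 0.36. The deposited counts are raw read numbers per mature miRNA and hairpin, and the deposited CPM divides them by the total over all pairs and was not used. Each mature miRNA took its largest count over hairpins. Those above 2 counts in 2 or more libraries were tested with the quasi-likelihood test of edgeR 4.0.16 in R 4.3.3 after TMM scaling, with Benjamini-Hochberg adjustment over all tested miRNAs and FDR 0.1. Standard errors were derived from the log2 fold change and its F statistic. limma 3.58.1 and DESeq2 1.42.0 were used in alternatives, with other scalings, filters, tests, counting rules, a replicate block and each library left out. Log2 CPM used a prior count of 2. Named were all members, for each the 3 miRNAs of highest r, and up to 3 that passed per list, with some list members that did not pass. Members and lists were chosen with earlier results of these data known, and the lists were written from general knowledge. bta-miR-203, on one list, was not matched by name. Libraries within a group differed by more than sampling noise. On simulated counts for the 456 miRNAs with 200 changed by 2 on the log2 scale, edgeR found 82.9% of the changed ones, and 4.69% of its calls were unchanged miRNAs. RefSeq's table for ARS-UCD2.0 matched 1032 of 1064 hairpins by name and was used only for gene names and order.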

Additional observations from a re-analysis of the deposited data

How the results depend on the processing

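The number of miR-193 and miR-365 miRNAs that passed FDR 0.1 was 1 after TMM scaling, 2 with upper-quartile scaling, 0 with total counts alone (1 at an unadjusted p under 0.05) and 0 with total counts without bta-miR-122, a setting chosen after the values were seen, and 0 to 1 on leaving out single libraries. It was 1 with each of the other tests, filters, counting rules and DESeq2 size factors. The number of DEmiRNAs over all tested miRNAs moved from 87 to between 49 and 86 with each library left out, lowest without grain-fed replicate 2, and lay between 70 and 124 in the other settings. The 17 calls over all lists became 6 to 17 with each library left out, falling to 6 when grain-fed replicate 2 and to 10 when grain-fed replicate 1 was left out. bta-miR-193b turned to 0.15 with upper-quartile scaling and to 0.036 without grass-fed replicate 3, over a range of -0.21 to 0.036 with each library left out, and bta-miR-365-5p turned to 0.0096 with upper-quartile scaling. Upper-quartile scaling moved the median over all tested miRNAs from 0.13 to 0.31, and the cause of the turn without grass-fed replicate 3 was not tested. The 5 ratios kept their direction in all 10 alternatives each. With the replicate number as a block, 82 DEmiRNAs passed and bta-miR-365-3p had FDR = 0.0547 in edgeR, so its call did not change. Same-numbered libraries had correlations of -0.20 to -0.011 in their deviations and 0 of 6 libraries was closest to its own number, so the numbers were not taken as pairs. The rare strands, at 9 to 25 counts in grain-fed libraries, are limited by depth.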
